A study of Mus musculus with 5 samples.

Results

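Amino acid transporters carry amino acids across the plasma membrane or out of the lysosome. The genes described here are those whose annotated symbol begins with Slc7a, Slc38a, Slc36a or Slc43a, together with Slc1a1 to Slc1a7, the heavy chains Slc3a1 and Slc3a2, and Slc16a10. The rule found 45 genes, each with its own probe set, among 23279 genes on the arrays. Slc7a6os and Slc36a1os share the prefix only: they are annotated on the opposite strand of a transporter gene and are not known as carriers. The remaining 43 are called carriers here, a count that includes the heavy chains Slc3a1 and Slc3a2, which are subunits of carriers. Expression was measured on Affymetrix arrays in untreated E10.5 hearts of mouse embryos, from 3 control and 2 knockout (KO) samples. The series title names LRRFIP2 in the response to hypoxia, and the labels do not give the deletion, its promoter or Cre, the strain, or whether controls are wild type. Nor do they state how many hearts went into a sample, so p-values measure only the spread between these 5 samples, which may be technical. Lrrfip2 was at 7.33, 8.07 and 8.08 in control replicates 1, 2 and 3 and at 6.36 and 6.22 in the knockout arrays; with the deleted exons not stated, its probes may lie outside them.

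Levels are log2 values from RMA, which brings the arrays to similar but not identical distributions (array medians 5.07 to 5.11). A difference is the knockout mean minus the control mean, so 1 unit is a 2-fold change. Members with a mean level under 4.44, the 40th percentile of all genes, are called dim and were not tested. There were 13 dim and 32 tested members. In whole hearts, a change in the number of cells of a type and a change in RNA per cell cannot be told apart. Cardiomyocyte markers were above the dim level on all arrays (10 of 10), so the tissue label was borne out. Knockout replicate 2 also carried endoderm transcripts: the mean level of 10 endoderm markers was 8.03 there and 4.52 to 4.65 on the other arrays, and 10 of 10 were above the dim level there against 5 or 6 elsewhere. Erythroid markers (8 genes) were highest in control replicate 3, with a mean level of 9.59 against 8.31 to 8.91. Markers of macrophages and other blood cells (9 genes) averaged 5.58 in knockout replicate 1 and 4.95 to 5.05 elsewhere, with a median shift from the control mean of 0.27 there. Tyrobp (2.65), Fcer1g (1.19) and Ptprc (1.13) carried most of it. The macrophage markers Csf1r (0.46) and Cx3cr1 (0.27) were also above all controls on that array. Cd68 (-0.02), C1qb (0.05) and C1qa (-0.38) were not, and Adgre1, at 4.15 on every array, carries no information. Endothelial markers (8 genes) averaged 8.43 in knockout replicate 1, with the remaining arrays at 7.79 to 8.03, and had median shifts of 0.54 and 0.12 in knockout replicates 1 and 2. Pecam1, Cdh5, Kdr and Flt1 of these were above all controls on both arrays. Kdr (0.60) and Flt1 (0.64) had unadjusted limma p of 0.0132 and 0.0442. Emcn (0.53) and Erg (0.13) were above all controls in knockout replicate 1 only, and Erg was below them in knockout replicate 2. Tie1 (0.00) was within the control range on both arrays. Tek (-0.20) was within it in knockout replicate 1 and below it in knockout replicate 2. The part of these cell types in the carriers' levels was not tested. Some fits below add the endoderm or erythroid level as a covariate. The endoderm level sets knockout replicate 2 apart, and the erythroid level was highest in control replicate 3. With 5 arrays, these fits cannot tell cell content from other traits of those arrays.

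Amino acid carriers work by exchange, by cotransport with sodium or protons, or by facilitated diffusion. Some are single proteins, while the light chains of the SLC7 family reach the membrane bound to a heavy chain, Slc3a2 or Slc3a1. When amino acids run short or the endoplasmic reticulum is stressed, kinases acting on eIF2 raise translation of the transcription factor ATF4, whose known targets include several carriers and enzymes of amino acid synthesis. Leucine brought in by such carriers is a signal to mTORC1, the kinase complex that couples nutrients to growth.

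In the knockout hearts 5 carriers had higher levels and 1 a lower level at an unadjusted p under 0.05. The heavy chain Slc3a2 and its light chain Slc7a5, the arginine and lysine carriers Slc7a1 and Slc7a3, and the neutral amino acid carrier Slc1a4 were higher in both knockout arrays, by 1.24-fold (Slc7a1) to 4.33-fold (Slc7a3). The aromatic amino acid carrier Slc16a10 had a level 1.71-fold lower. In limma across 13967 genes, 0 members and 0 genes passed an adjusted p of 0.05, so none of these is called as changed (smallest adjusted p = 0.287, a value that Slc16a10 shared with other genes). At an unadjusted p under 0.05 there were 6 of 32 members (18.8%), against 8.78% of all genes tested. Of these, 5 were higher (15.6%, background 3.29%) and 1 was lower (3.12%, background 5.49%). Slc7a3 and Slc1a2 passed the dim level only through their knockout values. Slc38a5 was called dim with a control mean of 4.58, which control replicate 3 alone (5.50) put above the dim level. Both its knockout arrays lay below all controls (mean 3.78), and its unadjusted limma p without a filter was 0.223. Without a filter the same 6 genes of 45 were under 0.05, with 5 higher (11.1%, background 2.41%) and 1 lower (2.22%, background 3.71%). All 6 also had p under 0.01, which 2.38% of genes tested reached. Groups did not overlap for 9 tested members (28.1%, background 21.3%), with the knockout above in 7 (background 8.18%) and below in 2 (background 13.1%). The median difference of the tested members was 0.08, and that of all genes tested was -0.02.

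**Figure D1:**
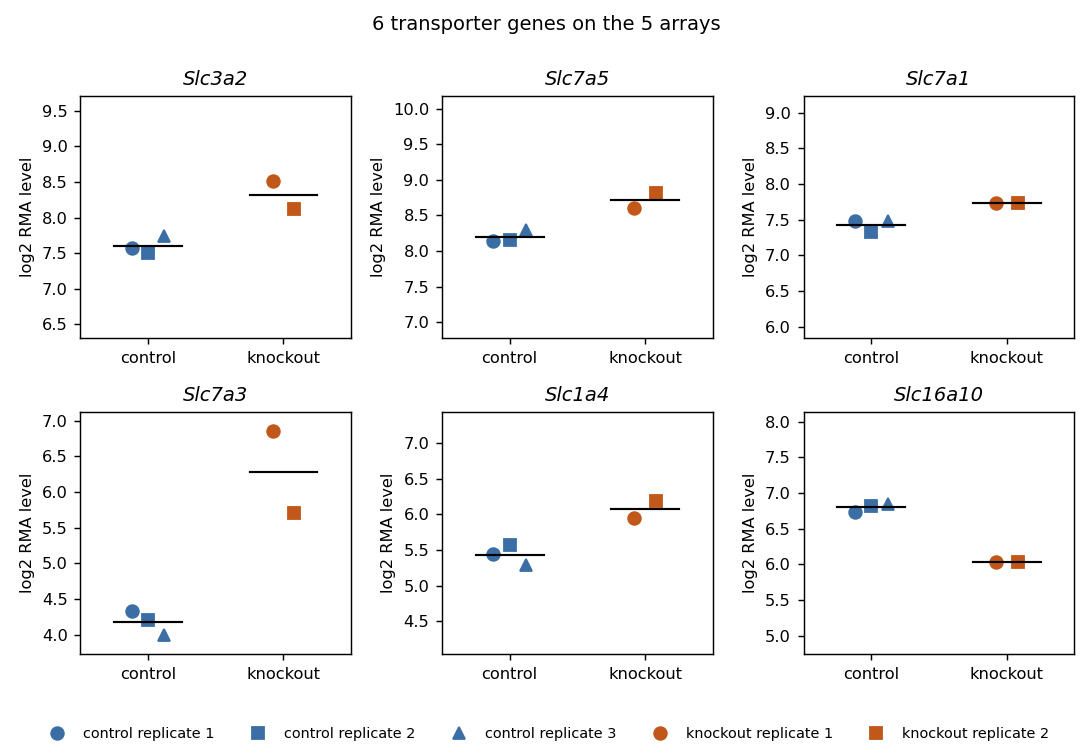
Log2 RMA level (vertical axes, each spanning the same range) of 6 carriers on the 3 control and 2 knockout arrays; symbols are arrays and lines are group means. In each panel the knockout points lie outside the control points, above them for Slc3a2, Slc7a5, Slc7a1, Slc7a3 and Slc1a4 and below them for Slc16a10.

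The heavy chain Slc3a2 (Entrez 17254, chromosome 19), also known as CD98 or 4F2hc, escorts several light chains to the plasma membrane. It was at 7.57, 7.50 and 7.74 in control replicates 1 to 3 and at 8.51 and 8.12 in knockout replicates 1 and 2. The knockout arrays were both above all controls, and knockout replicate 1 was the higher. The mean was 7.60 ± 0.122 (SD, n = 3) in control and 8.32 ± 0.273 (SD, n = 2) in knockout hearts. This difference of 0.71 ± 0.15 (SE) had an unadjusted limma p of 0.00859 and an adjusted p of 0.394. Slc7a5 (Entrez 20539, chromosome 8), or LAT1, pairs with Slc3a2 and exchanges large neutral amino acids such as leucine for glutamine. Its levels were 8.14, 8.15 and 8.29 in controls and 8.61 and 8.81 in knockout arrays. Again the groups did not overlap, but here knockout replicate 2 was the higher. The difference was 0.52 ± 0.0886 (SE), a 1.43-fold level, with an unadjusted limma p of 0.00419 and an adjusted p of 0.355.

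The other tested light chains of Slc3a2 had smaller differences, with 95% intervals that include 0. Slc7a6, which exchanges cationic for neutral amino acids, was at 7.81, 7.83 and 7.40 in controls and 7.34 and 7.62 in the knockout arrays, so only knockout replicate 1 lay below the control range. The difference was -0.20, with a 95% interval of -0.70 to 0.30. Slc7a7, the partner of Slc3a2 in basolateral export of cationic amino acids, was at 5.95 on all 3 control arrays and at 6.03 and 6.33 in the knockout arrays. Its difference of 0.23 (95% interval -0.06 to 0.51) had an unadjusted limma p of 0.0932; it was 0.07 without knockout replicate 2, and 0.08 in a fit that adds the endoderm level as a covariate. Slc7a8, or LAT2, a second carrier of large neutral amino acids, was at 4.71, 5.12 and 4.74 in controls and 4.68 and 5.07 in the knockout arrays, a difference of 0.02 (95% interval -0.52 to 0.56). Slc7a10, a carrier of small neutral amino acids, was at 4.93, 4.82 and 5.13 in controls and at 4.93 on both knockout arrays, a difference of -0.03 (95% interval -0.31 to 0.26). The intervals of Slc7a6, Slc7a7 and Slc7a8 reach past 0.27, the lower bound for Slc7a5, so a shift as large as that bound lies within them. The cystine and glutamate exchanger Slc7a11, which also pairs with Slc3a2, was dim, at 3.09, 2.89 and 2.87 in controls and 3.41 and 3.09 in knockout arrays. Slc3a1, the heavy chain of kidney and gut, was dim as well, at 4.44, 4.26 and 4.41 against 4.18 and 4.20, with the knockout arrays below the controls. Its light chain Slc7a9 was dim at 2.99 to 3.36, and Slc7a13 was at 2.91 on every array.

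Among carriers of cationic amino acids, Slc7a3 gave the largest difference of any member. Slc7a3 (Entrez 11989, chromosome X), or CAT3, takes up arginine and lysine and is best known in neurons. Levels were 4.33, 4.20 and 3.99 in controls, all under the dim level, and 6.86 and 5.71 in knockout replicates 1 and 2. No other member had a gap of 1 or more between the knockout arrays; here it was 1.15. The difference was 2.11 ± 0.387 (SE), a 4.33-fold level, with an unadjusted limma p of 0.00527 and an adjusted p of 0.355. The signal was above the dim level on the knockout arrays only. The neural and neural crest markers (5 genes) averaged 5.43 and 5.21 in the knockout arrays and 5.38 to 5.60 in controls. Tubb3 among them was below all controls on both knockout arrays (6.94 and 6.50 against 7.42, 7.43 and 7.71). For Sox10, Elavl3, Stmn2 and Foxd3 the groups overlapped. The relation of these markers to Slc7a3 was not tested. Slc7a1 (Entrez 11987, chromosome 5), or CAT1, the arginine carrier of most cells, was at 7.48, 7.33 and 7.48 in controls and at 7.73 and 7.74 in the knockout arrays. These 2 values lie close together and above all controls; the difference was 0.31 ± 0.0616 (SE), with an unadjusted limma p of 0.00713 and an adjusted p of 0.366. For Slc7a2, a CAT carrier of liver and macrophages, the values were 4.50, 4.89 and 4.59 in controls and 5.10 and 4.86 in knockout arrays, which overlap (difference 0.32, 95% interval -0.11 to 0.75). Slc7a14, a lysosomal relative, had a difference of 0.04, and Slc7a4 was dim.

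In the SLC1 family, which holds the sodium-dependent glutamate carriers and a pair of neutral amino acid exchangers, only Slc1a4 of 6 tested members had an unadjusted p under 0.05 (16.7%, against 8.78% of genes tested). Slc1a4 (Entrez 55963, chromosome 11), or ASCT1, exchanges alanine, serine, cysteine and threonine. It was at 5.44, 5.57 and 5.29 in controls and 5.95 and 6.19 in knockout arrays, without overlap. The difference was 0.64 ± 0.123 (SE), a 1.55-fold level, with an unadjusted limma p of 0.00649 and an adjusted p of 0.364. Slc1a5, or ASCT2, the main glutamine exchanger of dividing cells, was at 7.46, 7.33 and 7.55 in controls and 7.61 and 7.56 in knockout arrays. Its groups just failed to overlap, but the difference was 0.14 (95% interval -0.07 to 0.36). The glutamate carrier Slc1a3 (6.70, 6.52 and 6.50 against 6.47 and 6.48) was lower without overlap by a margin smaller than the control range of 0.20. Slc1a5, Slc1a3 and Slc7a7 complete the 9 members without overlap, and the first pair is named for that, after its values were seen. The glial glutamate carrier Slc1a2 was above the controls in knockout replicate 2 alone, at 4.80 against 4.40 in knockout replicate 1 and 4.28 to 4.43 in controls. Slc1a6 and Slc1a7, glutamate carriers of cerebellum and retina, had differences of 0.12 and 0.00, and Slc1a1 was dim.

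Slc16a10 (Entrez 72472, chromosome 10), also called TAT1 or MCT10, lets phenylalanine, tyrosine, tryptophan and thyroid hormone cross the membrane by facilitated diffusion. It was at 6.74, 6.82 and 6.85 in controls and at 6.03 and 6.04 in knockout arrays. The knockout values differ from each other by 0.01 and lie far below all controls. The mean was 6.81 ± 0.057 (SD, n = 3) in control and 6.04 ± 0.0061 (SD, n = 2) in knockout hearts, a difference of -0.77 ± 0.0476 (SE). Its unadjusted limma p of 7.84e-05 was the third smallest of all genes tested. The difference was -0.77 without knockout replicate 1 and -0.77 without knockout replicate 2, so neither array decides it. The SLC43 carriers, which like Slc16a10 work by facilitated diffusion, had groups that overlap. Slc43a1, or LAT3, a carrier of branched-chain amino acids, was at 7.38, 7.31 and 7.77 in controls and 7.28 and 7.38 in knockout arrays. Slc43a3, a purine carrier of endothelium and other cells, was at 8.31, 8.26 and 8.75 against 8.13 and 8.31. In both genes the highest value was that of control replicate 3, the array with the highest erythroid level. Without it the differences were -0.02 for Slc43a1 and -0.06 for Slc43a3, against -0.16 and -0.22 over all arrays. For Slc43a2, or LAT4, the difference was -0.04.

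SLC38 members are sodium-coupled carriers of glutamine and other neutral amino acids, and 0 of 8 tested had an unadjusted p under 0.05, against 8.78% of genes tested. These include the 3 members with the brightest probe sets, which says nothing of the relative abundance of their transcripts. Slc38a4, or SNAT4, an imprinted gene of placenta, liver and embryo, was at 10.08, 10.12 and 9.97 in controls and 10.02 and 10.06 in knockout arrays. Its difference of -0.01 (95% interval -0.18 to 0.16) was within the spread of the arrays. Slc38a1 was at 8.96, 8.99 and 8.95 against 8.82 and 8.95, a difference of -0.08 (95% interval -0.23 to 0.06). Slc38a2, or SNAT2, which many cells induce when amino acids are scarce, was at 9.24, 9.25 and 8.73 in controls and 9.24 and 9.49 in knockout arrays. The low value of control replicate 3 carries most of its difference: 0.29 over all arrays and 0.12 without that array. Slc38a9, the lysosomal arginine sensor that signals to mTORC1, had a difference of -0.24 (95% interval -0.66 to 0.17), and knockout replicate 2 alone was below the controls. Slc38a7, a lysosomal glutamine exporter, was the only member with the knockout arrays outside the control range on opposite sides, at 5.32 and 5.98 against 5.53 to 5.63. Slc38a3, Slc38a6 and Slc38a10 had differences of 0.11, 0.19 and -0.02. The SLC36 family carries small amino acids with protons: Slc36a1, Slc36a2 and Slc36a4 had differences of 0.09 to 0.10, each with overlapping groups.

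The 13 dim members lay between 2.74 and 5.50 on all arrays. Besides those named above, they were Slc1a1, Slc7a4, Slc7a12, Slc7a15, Slc36a3, Slc36a1os, Slc38a5, Slc38a8 and Slc38a11. Without a filter, 0 of the 13 had an unadjusted limma p under 0.05; the smallest was 0.0576. Slc38a5, or SNAT5, which blood precursors of the red lineage also express, had the largest difference among them, -0.80. It was at 4.23, 4.01 and 5.50 in controls and 3.57 and 3.99 in knockout arrays, so control replicate 3 stood apart here too. Without that array the difference was -0.34, and it was -0.24 once the erythroid level entered as a covariate. Across all 45 members, 21 repeated a value between arrays, and 4 had the same value throughout, Slc7a6os (7.23), Slc1a7, Slc7a12 and Slc7a13. For these 4, the arrays carry no information on a difference.

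**Figure D2:**
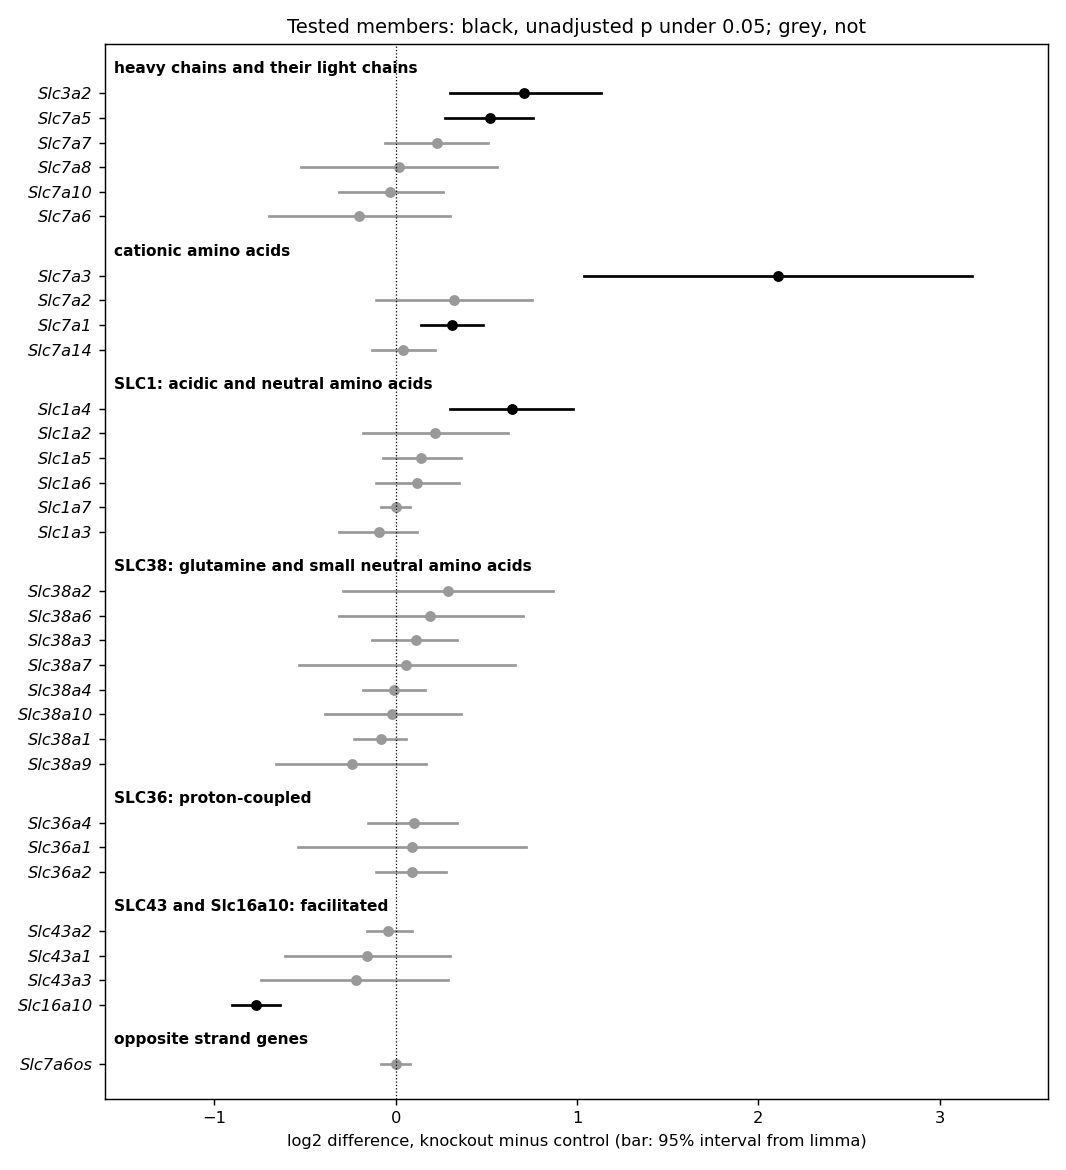
Log2 difference, knockout minus control (horizontal axis), of the 32 tested members grouped by role, with 95% intervals from limma; black marks an unadjusted p under 0.05. The 6 black members range from -0.77 (Slc16a10) to 2.11 (Slc7a3), and the intervals of the other 26 all include 0.

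The gap between the knockout arrays was at most 0.1 for 20 of 45 members and over 0.3 for 11. Among tested members, 7 were above the control range in both arrays, 2 were below it in both and 5 were within it in both. Another 5 were above in knockout replicate 2 alone, the array with endoderm transcripts (Slc1a2, Slc1a6, Slc36a1, Slc36a2 and Slc38a2), and 5 were above in knockout replicate 1 alone (Slc7a2, Slc7a14, Slc36a4, Slc38a3 and Slc38a6). Below the control range were 6 in knockout replicate 1 alone (Slc7a6, Slc7a8, Slc38a1, Slc43a1, Slc43a2 and Slc43a3) and 1 in knockout replicate 2 alone (Slc38a9), and Slc38a7 lay on opposite sides. On either side, knockout replicate 1 was outside the control range for 21 of the 32 tested members, against 60.4% of all genes tested. For knockout replicate 2 it was 16, against 49.8%. The relation of these members to endoderm, endothelial or blood cells was not tested. The 5 higher genes were higher in each array taken alone. Slc3a2 and Slc7a3 had the larger shift in knockout replicate 1 (0.91 and 2.69, against 0.52 and 1.54 in replicate 2). Slc7a5 and Slc1a4 had the larger shift in knockout replicate 2 (0.61 and 0.76, against 0.42 and 0.52), and Slc7a1 shifted by 0.30 and 0.32. Over 15 fits that differed in filter, scaling, covariate or arrays used, each of the 6 genes kept its direction, Slc7a3 in the 14 in which it was tested. The reported fit, in which these genes were selected, is among them. So is a fit that averaged probe sets, which left the members' values unchanged because each has its own probe set. The fit with the endoderm covariate is close to that without knockout replicate 2. All these fits use the same arrays, so they are no independent support. Slc7a3 and Slc16a10 passed the adjusted threshold without knockout replicate 2 (adjusted limma p of 0.0327 and 0.038), in a fit where 983 of all genes did, and with the endoderm level in the model (0.0415 and 0.0437), where 742 did.

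**Figure D3:**
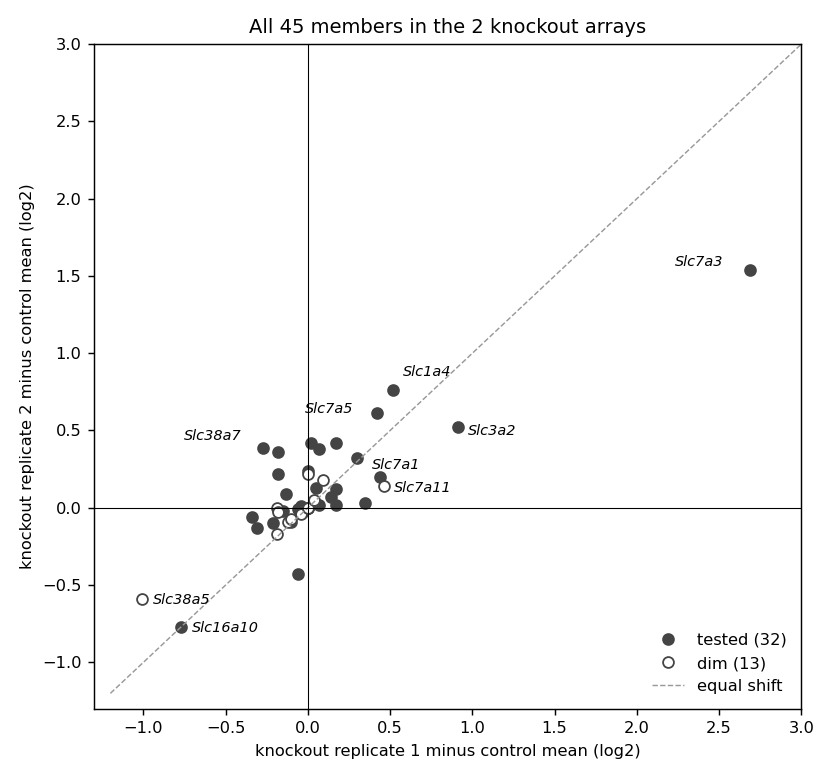
Level in knockout replicate 1 (horizontal axis) and knockout replicate 2 (vertical axis) minus the control mean, in log2 units, for all 45 members; filled points are the 32 tested and open points the 13 dim members. Slc7a3 lies farthest from the origin at 2.69 and 1.54, and Slc16a10 lies on the line of equal shift at -0.77 and -0.77. Slc38a7 has opposite signs, at -0.27 and 0.39, as do Slc36a1, Slc7a8, Slc38a10 and Slc38a4 nearer the origin.

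Promoter windows show where members carry the core of the amino acid response element, the composite site bound by ATF4 with a C/EBP partner, and of the hypoxia response element. The windows are from RefSeq (GRCm38.p6), run from 250 bases before to 50 bases after a gene's start, and were found for 35 of the 45 members (46 windows); Slc7a5 and Slc7a3 had no entry. The letters TGATGNAA, on either strand, were in 3 of 35 member genes (8.57%) and in 4.51% of all genes in the table. Per window the shares were 8.70% and 3.97%. The letters ACGTG, on either strand, were in 13 of 35 member genes (37.1%) and in 21.8% of all genes, or 32.6% and 19.6% per window. Where ACGTG lies in a palindrome both strands match the same site, with the letters CACGTG. Windows of Slc43a1, Slc7a14, Slc1a7, Slc38a7, Slc1a6, Slc36a1 and Slc38a5 hold such a palindrome. Whether any ACGTG match is a hypoxia response element was not tested. The genes with TGATGNAA were Slc1a4, Slc7a11 and Slc7a7. ACGTG was in Slc3a2, Slc43a1, Slc7a14, Slc1a7, Slc38a7, Slc7a6, Slc1a6, Slc36a1, Slc38a10, Slc7a15, Slc7a7, Slc1a3 and Slc38a5. Of these 13, only Slc3a2 had an unadjusted limma p under 0.05, and Slc7a15 and Slc38a5 were dim. Slc7a7 has several windows, and its TGATGNAA matches in the first and the second of them share a site. Windows of Slc7a1 and Slc16a10 held neither. The stretches below, 200 bases each, show the member with a higher level and a response element core at its start (Slc1a4), the other members with such cores (Slc7a11, which was dim, and Slc7a7), the ACGTG of the heavy chain (Slc3a2) and the lower member (Slc16a10). Each ends at the gene's start or at the end of a match that spans it, and capitals mark the matches to TGATGNAA, or in Slc3a2 to ACGTG, on either strand.
Slc1a4, chr11:20332710-20332909, minus strand: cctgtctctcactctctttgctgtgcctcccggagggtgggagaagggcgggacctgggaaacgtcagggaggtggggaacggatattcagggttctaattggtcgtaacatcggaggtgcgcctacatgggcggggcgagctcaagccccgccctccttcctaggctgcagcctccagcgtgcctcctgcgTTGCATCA
Slc7a11, chr3:50443614-50443813, minus strand: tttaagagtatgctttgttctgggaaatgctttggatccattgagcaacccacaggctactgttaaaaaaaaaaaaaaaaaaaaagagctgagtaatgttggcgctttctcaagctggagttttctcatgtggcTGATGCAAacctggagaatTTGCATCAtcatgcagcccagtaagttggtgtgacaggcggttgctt
Slc7a7, chr14:54417938-54418137, minus strand: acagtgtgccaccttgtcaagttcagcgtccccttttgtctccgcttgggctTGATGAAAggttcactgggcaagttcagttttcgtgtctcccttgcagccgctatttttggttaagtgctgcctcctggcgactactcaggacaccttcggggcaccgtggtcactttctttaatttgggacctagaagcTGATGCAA
Slc3a2, chr19:8713898-8714097, minus strand: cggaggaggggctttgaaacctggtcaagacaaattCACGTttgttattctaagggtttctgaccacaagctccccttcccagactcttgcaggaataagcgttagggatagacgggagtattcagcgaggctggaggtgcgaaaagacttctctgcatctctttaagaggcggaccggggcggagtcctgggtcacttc
Slc16a10, chr10:40142255-40142454, minus strand: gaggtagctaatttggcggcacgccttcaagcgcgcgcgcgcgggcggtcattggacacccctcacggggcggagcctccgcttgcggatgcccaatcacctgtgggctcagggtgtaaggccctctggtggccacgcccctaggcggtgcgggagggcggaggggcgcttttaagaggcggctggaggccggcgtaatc
Counting from the start, the match in Slc1a4 begins at base -4, on the opposite strand. Those in Slc7a11 begin at bases -66 and -47, with 1 on each strand. A match describes these letters only. Of the genes with TGATGNAA, Slc1a4 had a difference of 0.64, Slc7a7 of 0.23, and Slc7a11 was dim.

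Other genes of amino acid transport, sensing and use gave the following counts in the same fit. Of 18 genes of the amino acid response, all tested, 14 were higher at an unadjusted p under 0.05 and 0 were lower, with a median difference of 0.89; the background was 3.29% and 5.49%. The count was 9 without control replicate 1 and 9 without control replicate 2. In those fits 5.53% and 5.66% of all genes were under that p in either direction. The median difference was 0.66 without knockout replicate 1 and 0.79 without knockout replicate 2. The list was drawn up knowing earlier results of these data, so its count is no independent evidence of its direction. The members with the smallest p were Chac1 (1.55), which degrades glutathione, Sesn2 (0.92), a leucine sensor that restrains mTORC1, the serine hydroxymethyltransferase Shmt2 (0.95), Ddit4 (1.40), another mTORC1 inhibitor, Atf4 itself (0.33) and the proline synthesis enzyme Aldh18a1 (0.52). Atf4 was at 10.43, 10.39 and 10.36 in controls and 10.71 and 10.74 in knockout arrays, without overlap.

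The genes that sense amino acids for mTORC1 had no common direction. Of 28 tested, 2 were higher (Sesn2 and the S-adenosylmethionine sensor Bmt2, 0.49) and 3 lower (the nucleoporin and GATOR2 subunit Sec13, -0.31, the Ragulator subunit Lamtor4, -0.30, and the arginine sensor paralogue Castor2, -0.55) at an unadjusted p under 0.05, with a median of 0.00. For this and the next lists the background over all arrays was 3.29% higher and 5.49% lower. In either direction it was 5.53%, 5.66% and 7.65% without control replicates 1, 2 and 3, and 6.81% with the erythroid covariate. Without control replicate 1 the sensing genes gave 1 higher and 0 lower, without control replicate 2 they gave 1 and 1, and without control replicate 3 they gave 1 and 4. Their median was 0.00 without knockout replicate 1 and 0.00 without knockout replicate 2. Mitochondrial, lysosomal and vesicular carriers had 0 higher and 2 lower of 15 tested, the serine transporter relative Sfxn3 (-0.42) and the aspartate and glutamate carrier Slc25a13 (-0.24), with a median of -0.09. The lower count was 0 without control replicate 2, 0 in the fit with an erythroid term and 1 without control replicate 1. The median of these carriers was -0.02 without knockout replicate 1 and -0.16 without knockout replicate 2. In the SLC6 family 0 of 5 tested members were under that p, with a median of -0.07; the taurine carrier Slc6a6 was nearest, at 8.78, 8.55 and 8.73 in controls and 7.74 and 8.41 in knockout arrays. Among 15 genes of glutamine, aspartate and branched-chain amino acid use, higher levels were seen in 2 and lower levels in 2 at that p (median -0.01). Without control replicate 1, and again without control replicate 2, there were 0 in either direction, and there was 1 in each without control replicate 3. The median was 0.00 without knockout replicate 1 and -0.03 without knockout replicate 2. The higher genes were asparagine synthetase, Asns (1.15), and the cytosolic branched-chain aminotransferase Bcat1 (0.50). The lower were its mitochondrial counterpart Bcat2 (-0.16) and Bckdhb (-0.13), a subunit of the next enzyme in that pathway. Asns here, and Sesn2 among the sensing genes, also belong to the amino acid response list and are counted there too.

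**Figure D4:**
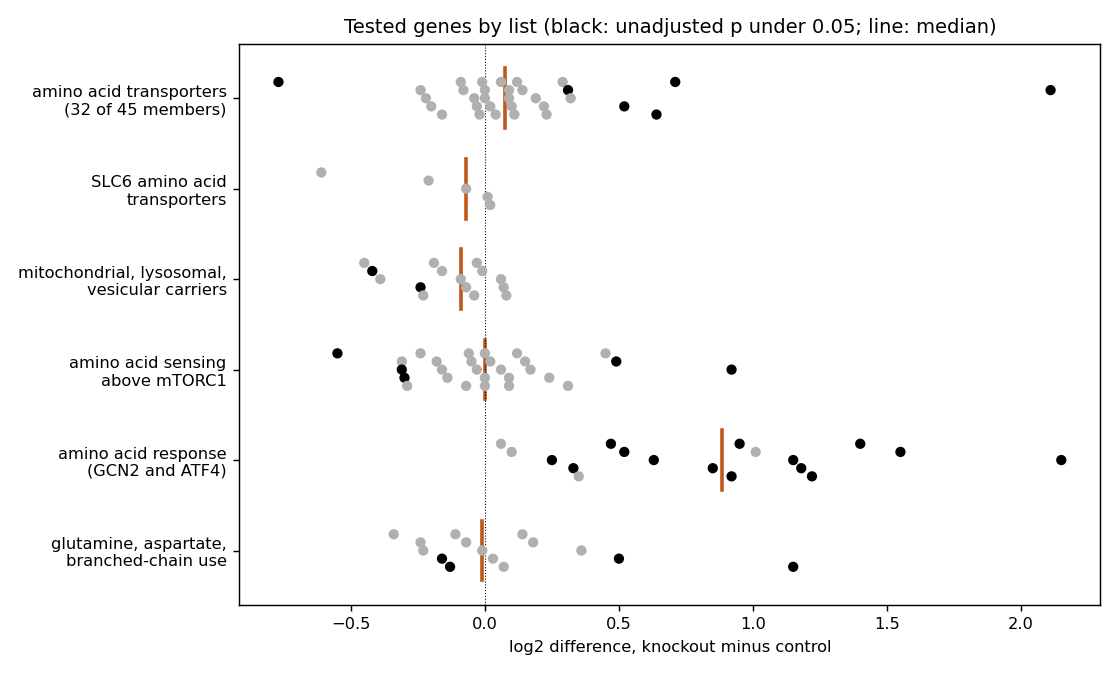
Log2 difference, knockout minus control (horizontal axis), of tested genes in 6 lists; points are genes, black where the unadjusted p was under 0.05, and lines are medians. The amino acid response list has a median of 0.89, while the carriers centre near 0 (median 0.08) with 5 black points above 0 and 1 below.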

How the data were processed

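The authors deposited log2 expression levels. Affymetrix Expression Console and RMA are named in the submitters' processing notes, with versions, settings and build not given in the sources used here. Per the labels' protocols, 20 ng of Trizol-extracted total RNA was amplified and biotin-labelled. Of 24479 probe sets, 23281 had 1 gene symbol in the platform annotation, 0 several and 1198 none; 23156 of those named were found in a RefSeq gene table (GRCm38.p6), all 45 members among them. The brightest probe set was kept per gene. Genes under the 40th percentile of the mean level were left out, and knockout was compared with control by lmFit and eBayes of limma 3.58.1 under R 4.3.3 (two-sided, no covariate), with Benjamini-Hochberg adjustment over 13967 genes. The fit was tested on simulated data. With 10 splits of the arrays no permutation p can be below 0.1, so none was computed. Array medians were 5.07 to 5.11 and correlations between arrays 0.986 to 0.996. The number of arrays limits the precision, and no scanner values were used.

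Members and lists were chosen with earlier results of these data known. Values on every array are given for members with an unadjusted p under 0.05, tested heavy and light chains, Slc3a1, members with a knockout gap of 1 or more and the 3 with the highest mean; of other lists, up to 6 genes with the smallest p under 0.05. Other members with values were chosen after these were seen. Alternatives changed the filter, probe set averaging, scaling, variance prior, array weights, covariates, p threshold and arrays used.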

Additional observations from a re-analysis of the deposited data

How the results depend on the processing

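With only 2 knockout arrays, what changed most was which arrays entered. Genes past the adjusted threshold in limma numbered 0 over all arrays (1227 at an unadjusted p under 0.05), 0 to 983 when an array was left out, and 742 with the endoderm covariate, a fit close to that without knockout replicate 2; where 1 knockout array is left it is assumed to vary like the controls. Members under an unadjusted p of 0.05 numbered 6 to 10 when an array was left out, the 10 without knockout replicate 1, where 17.0% of all genes were that low; 9 without knockout replicate 2 stood against 27.3%. The 6 members named first were among them in each case. Members without overlap numbered 9 to 21 when an array was left out, with 60.4% of all genes at the highest, without knockout replicate 2. The median difference of tested members was 0.00 to 0.10 when an array was left out, 0.02 with no filter, 0.03 with array weights, 0.00 with the endoderm covariate and 0.03 with the erythroid covariate. Differences near 0 changed sign. For Slc38a4 the value was 0.03 after quantile normalization again, and -0.06 to 0.02 when an array was left out, positive without control replicate 2 (0.02) and without knockout replicate 1 (0.01). Slc7a10 was at 0.02 with array weights, 0.08 with the erythroid level and 0.05 without control replicate 3 (range -0.10 to 0.05 over arrays left out). Slc7a8 was at -0.01 with array weights, -0.16 with the endoderm level, -0.10 with the erythroid level, -0.05 without control replicate 1, -0.04 without control replicate 3 and -0.18 without knockout replicate 2 (range -0.18 to 0.22 over arrays left out). The cause was not tested. No paired analysis was possible because the sample numbers in the titles are not shared between the groups.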
